A study of Mus musculus with 25 samples.

Results

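The 10 core circadian clock genes Arntl, Clock, Npas2, Per1, Per2, Per3, Cry1, Cry2, Nr1d1 and Nr1d2 were followed in mouse liver. They were chosen by symbol, mapped to their Ensembl identifiers, from 41388 gene identifiers counted by poly-A RNA sequencing. All 10 passed the filter on low counts. The 25 livers came from male mice of the strain labelled C57B/6J, aged 20 wk, which had received AAV8 as adults of about 8 wk and were then followed for 12 wk.

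The chow-fed group held 3 wild-type mice with the empty vector (chow WT EV). On Western diet (WD) there were 6 wild-type mice with the empty vector (WD WT EV), 6 with the NAMPT vector (WD WT NAMPT), and 5 mice each of the SIRT1 LKO genotype with the empty vector (WD LKO EV) or with NAMPT (WD LKO NAMPT). Per the study's methods, LKO mice carry 2 loxP-flanked Sirt1 alleles and an Albumin-Cre transgene, so that deletion is directed to hepatocytes, and their wild-type littermates carry the same alleles without Cre. Vector expression was driven by the hepatocyte promoter of thyroxine binding globulin. The treatment label names SIRT1 as the insert where the sample titles name NAMPT, and the titles were followed. Each library is 1 liver, so that fewer cells of a type and less RNA per cell cannot be told apart. The labels give no hour of collection, which bears on every value below because these genes cycle over the day.

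Library totals ran from 20166175 to 32937326 counts. WD WT NAMPT replicate 2 stood apart in its TMM (trimmed mean of M-values) size factor, 1.29 against 0.887 to 1.12 elsewhere. Summed hepatocyte markers (Alb, Ttr, Apoa1, Cps1 and Tat) lay between 44042 and 73993 CPM (counts scaled to library size) in every library. Neither targeted gene passed the test between the groups that should differ in it. Sirt1 was at 8.57 ± 1.34 CPM in the 5 WD LKO EV livers and 8.86 ± 0.57 in the 6 WD WT EV livers (mean ± SD), which differed by -0.07 ± 0.10 on the log2 scale (SE, limma adjusted p = 0.990), so that directions drawn from LKO rest on the labels. Counts span the whole gene and cannot show the loss of a part of it. Nampt averaged 47.4 ± 6.46 CPM with the empty vector and 59.5 ± 10.6 with NAMPT in WT (SD, n = 6 each), a difference of 0.34 ± 0.16 on the log2 scale (SE, limma adjusted p = 0.144). In LKO it was at 56.1 ± 12.0 CPM with the empty vector and 79.9 ± 28.4 with NAMPT (SD, n = 5 each, limma adjusted p = 0.403).

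The clock is a transcriptional feedback loop. BMAL1, the product of Arntl, pairs with CLOCK or its paralogue NPAS2 and activates genes with E-box elements, among them the Per, Cry and Nr1d genes. PER and CRY proteins enter the nucleus and inhibit the activator, and the nuclear receptors REV-ERBα and REV-ERBβ, encoded by Nr1d1 and Nr1d2, repress Arntl, Clock and Npas2, so that in liver the activators and REV-ERBs peak at opposite times. Nampt, the rate-limiting enzyme of NAD salvage, is itself a clock output, and the NAD-dependent deacetylase SIRT1 acts on clock proteins. These relations are background to the comparisons.

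Promoter windows of 250 bases before the annotated start (RefSeq, GRCm38.p6) matched 9 of the 10 members. They were searched on both strands for the E-box CACGTG, the E'-box CACGTT, the D-box TTATGTAA or TTACGTAA, the ROR element TAGGTCA or TGGGTCA and the cAMP response element TGACGTCA. Windows are shown for Arntl and Per3, which were among the 3 members with the largest fold changes in size, and for Per1, the paralogue of Per3. The third of those, Npas2, has 60 exonic bases in its window and is not printed. Capitals mark the matches, in the gene's own 5′ to 3′ direction.
Arntl, chr7:113207215-113207464, plus strand: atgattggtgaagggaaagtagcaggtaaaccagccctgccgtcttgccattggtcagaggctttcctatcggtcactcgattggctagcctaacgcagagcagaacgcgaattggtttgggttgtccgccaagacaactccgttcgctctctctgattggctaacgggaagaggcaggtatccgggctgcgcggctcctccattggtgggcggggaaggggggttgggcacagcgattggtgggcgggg
Per1, chr11:69098699-69098948, plus strand: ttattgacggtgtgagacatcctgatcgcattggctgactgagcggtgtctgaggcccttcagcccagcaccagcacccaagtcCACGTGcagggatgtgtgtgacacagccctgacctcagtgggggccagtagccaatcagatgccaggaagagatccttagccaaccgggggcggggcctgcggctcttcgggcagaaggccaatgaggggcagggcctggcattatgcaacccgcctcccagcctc
Per3, chr4:151044666-151044915, minus strand: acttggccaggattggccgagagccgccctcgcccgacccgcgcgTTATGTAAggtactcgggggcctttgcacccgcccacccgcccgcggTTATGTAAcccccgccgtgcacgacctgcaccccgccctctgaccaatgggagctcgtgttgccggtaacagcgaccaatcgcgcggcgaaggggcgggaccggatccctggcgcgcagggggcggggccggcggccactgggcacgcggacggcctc
The Per3 window held 2 D-boxes, the element bound by DBP, TEF and HLF, whose first bases lie 205 and 158 bases before the start, and a D-box was present in 0.931% of all 32851 windows. The printed Per1 window held 1 E-box, 166 bases before the start, and a second Per1 window, not printed, held no match. The printed window lies inside the span of the deposited Per1 model, whose first exon is further upstream. Cry1 held an E'-box at 79 and an E-box at 60 bases, Cry2 an E'-box at 166 bases and Nr1d1 an E'-box at 28 bases. E-boxes were found in 6.02% and E'-boxes in 3.85% of all windows. ROR elements (5.38% of all windows) and cAMP response elements (1.55%) were found in no member. None of these letters occurred in any Arntl, Clock, Npas2 or Nr1d2 window, and no 2 matches overlapped. Elements after the start, further upstream or with other letters were not searched, so their absence is not shown.

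Per kilobase of exon, Nr1d1 was the most abundant clock transcript, with a mean of 36.1 RPKM (CPM per kilobase) over the 25 libraries. Nr1d2 followed with 15.1 and Clock with 8.90. Cry2 (4.61), Per1 (3.98), Per2 (3.97) and Arntl (3.59) lay close together, and Cry1 (2.44), Per3 (1.59) and Npas2 (0.898) were lowest. The ranges over libraries of all neighbours in this order overlapped. Arntl varied most, 23.96-fold from 0.538 to 12.9 RPKM, and Clock least, 2.37-fold from 5.86 to 13.9 RPKM. Npas2 was the shallowest, with 17 to 389 counts per library.

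**Figure D1:**
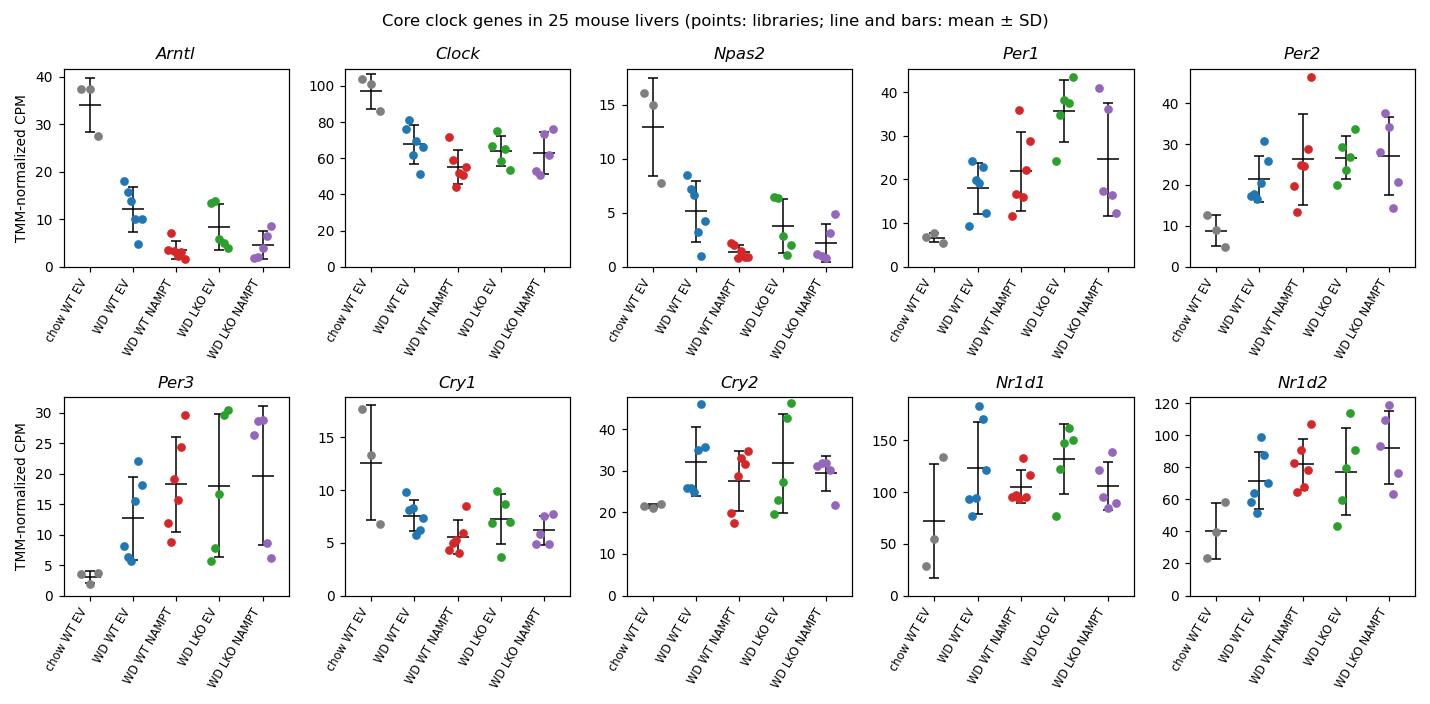
TMM-normalized CPM of each clock gene on a linear axis from 0, by group, with 1 point per library and the mean ± SD. Arntl ran from 27.6 to 37.4 CPM in the 3 chow livers and from 1.56 to 7.12 CPM in the 6 WD WT NAMPT livers, while Per3 in the WD groups was spread from 5.63 to 30.4 CPM.

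The NAMPT vector in wild-type mice on Western diet was set against the empty vector to ask what hepatocyte NAMPT changes. The 3 members of the activating limb were called lower and no other member was called. Over all 14065 genes tested, 13.4% were called, 5.77% lower and 7.67% higher (limma with voom and sample weights, adjusted p at most 0.05). An unadjusted p-value under 0.05 was found for 4 members, these 3 and Cry1, and for 30.3% of all genes. The 3 calls were Arntl, Npas2 and Clock, and the median log2 fold change of the 10 members was -0.05, against 0.00 for all genes. All 10 members overlapped between the groups, where 0.59% of all genes were lower and 0.37% higher without overlap. WD WT NAMPT replicates 3 and 4 carried weights of 1.62 and 1.85 in the fit. The other libraries of that group had 0.336 (replicate 6) to 0.922 (replicate 5).

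Arntl, on chromosome 7 from 113207465 to 113314122 (GRCm38), encodes the obligate partner of CLOCK and NPAS2. In WD WT EV it was at 4.88 CPM in the lowest, 11.9 in the median and 18.1 in the highest library, and with NAMPT at 1.56, 3.19 and 7.12 CPM. Only WD WT EV replicate 7 reached into the range of the NAMPT livers, and only WD WT NAMPT replicate 2 into that of the empty-vector livers. Arntl fell, with a log2 fold change of -1.99 ± 0.44 (SE, limma adjusted p = 0.0119). It stayed negative under every alternative and was called in 9 of 10 of them and in 11 of 12 fits that left out 1 library, the exception being WD WT NAMPT replicate 3 (limma adjusted p = 0.0520).

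Npas2, on chromosome 1 from 39193731 to 39363234, encodes the paralogue of CLOCK. Its levels were 0.950, 5.42 and 8.52 CPM in the lowest, median and highest WD WT EV library and 0.802, 1.18 and 2.22 CPM in WD WT NAMPT. All 6 NAMPT livers were below 5 of the 6 empty-vector livers, and the groups overlapped through WD WT EV replicate 7. Npas2 fell, with a log2 fold change of -1.98 ± 0.64 (SE, limma adjusted p = 0.0419). This call was lost in 5 of the 10 alternatives and in 8 of the 12 fits that left out 1 library.

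Clock, on chromosome 5 from 76212177 to 76304548, encodes the histone acetyltransferase partner of BMAL1. It changed less, from a median of 68.0 CPM (51.1 to 81.2) in WD WT EV to 53.6 CPM (43.8 to 71.5) in WD WT NAMPT. The libraries overlapped widely. Its fitted log2 fold change was -0.43 ± 0.13 (SE, limma adjusted p = 0.0283), and the call was kept in 1 of 10 alternatives.

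No member of the repressing limb was called. Cry1, on chromosome 10 from 85131702 to 85185054, a strong inhibitor of CLOCK and BMAL1, had a median of 7.71 CPM (5.73 to 9.83) in WD WT EV and 5.14 CPM (4.05 to 8.51) in WD WT NAMPT, with a log2 fold change of -0.61 ± 0.26 (SE, limma adjusted p = 0.114). It was called in 1 of 10 alternatives, the fit on only the groups compared (limma adjusted p = 0.0455). Per3, on chromosome 4 from 151003652 to 151044665, the PER member least needed for rhythm, had medians of 11.8 and 17.4 CPM and a log2 fold change of 0.79 with a 95% interval from -0.18 to 1.76. For Per1, on chromosome 11 from 69095217 to 69109960, it was 0.25 (-0.32 to 0.82), and for Per2, on chromosome 1 from 91415982 to 91459324, 0.28 (-0.19 to 0.76). These intervals leave room for changes in either direction.

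Cry2, on chromosome 2 from 92403646 to 92434043, had a log2 fold change of -0.07 (-0.47 to 0.33). The REV-ERB genes were likewise uncalled, Nr1d1, on chromosome 11 from 98767932 to 98775333, at -0.03 (-0.60 to 0.53) and Nr1d2, on chromosome 14 from 18204054 to 18239127, at 0.19 (-0.27 to 0.66). Of the exonic bases, 8.55% in Nr1d1 overlap Thra and 4.67% in Cry2 overlap D930015M05Rik on the other strand. In Dbp, a target of the loop given below, 16.67% overlap Sphk2 on the other strand. The sources used here do not state whether counting used strand, so reads there cannot be told apart.

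Several marker lists moved with the same groups, and their part in the clock values was not tested. Of 5 Kupffer cell markers, 2 were called higher in WD WT NAMPT, the scavenger receptor Marco (log2 fold change 2.79) and Cd5l (0.91), and the list summed to 196 to 545 CPM there against 206 to 309 CPM in WD WT EV. Of 5 neutrophil markers, 3 passed the filter and S100a9 was called higher (1.57), with sums of 1.51 to 17.3 against 1.24 to 5.91 CPM. Of 5 stellate cell markers Col1a1 was called higher (1.70), with sums of 283 to 492 against 275 to 400 CPM. Of 5 endothelial markers Pecam1 was higher (0.36) and Clec4g lower (-0.40), with sums of 249 to 273 against 256 to 294 CPM. None of the hepatocyte, B cell, T cell or cholangiocyte markers was called. Without WD WT NAMPT replicate 2, whose size factor stood apart, 2 clock genes were called, Arntl and Clock. Without both replicates 1 and 2, which had the highest size factors, no clock gene was called, with Arntl at -2.20 (limma adjusted p = 0.0572).

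Other genes of the loop and its outputs were also followed, and some that were called are counted here but not named. Of 13 clock modifiers and 8 fasting genes, 1 each was called lower. Of the 4 D-box factors, Nfil3, the D-box repressor, and Hlf, an activator, were called lower (log2 fold changes -0.84 and -0.48), while Dbp, the classic direct target of CLOCK and BMAL1, was at 27.97 ± 18.8 and 44.8 ± 15.0 CPM (SD, n = 6 each), with 1.23 ± 0.46 on the log2 scale (SE, limma adjusted p = 0.0716). Ciart, a repressor that is also a direct target, was at 0.76 ± 0.70 (SE, limma adjusted p = 0.490). Of 6 immediate early genes Atf3 (2.02) and Junb (0.89) were called higher, and of 7 temperature-responsive genes Rbm3 (0.55).

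In the libraries labelled LKO, the same vector comparison called none of the 10 members. An unadjusted p-value under 0.05 was found for 2 of them and for 9.63% of all genes. DESeq2 and both edgeR tests called no member either. Over all genes limma called 0.00711% at the adjusted threshold. Arntl was at 13.4, 13.7, 5.78, 5.03 and 3.87 CPM in WD LKO EV replicates 1 to 5 and at 1.81, 2.01, 4.01, 6.51 and 8.48 CPM in WD LKO NAMPT replicates 1 to 5. Both groups spanned high and low libraries. All 10 members overlapped here, where 0.647% of all genes were lower and 0.505% higher without overlap. The log2 fold change was -0.98 ± 0.45 (SE, limma adjusted p = 0.498), and -0.46 without WD LKO NAMPT replicate 2. Per1, whose product is an early light- and hormone-inducible repressor, was at 24.3, 34.7, 38.3, 37.6 and 43.5 CPM with the empty vector and at 41.0, 17.4, 36.1, 16.5 and 12.3 CPM with NAMPT. With NAMPT, 3 livers lay below every empty-vector liver and the other two lay within their range. The log2 fold change was -0.95 ± 0.27 (SE, limma adjusted p = 0.237), and between -0.54 and -0.53 under DESeq2 and both edgeR tests. The members ran from these values up to 0.30 for Nr1d2 (-0.19 to 0.78), which went to 0.10 without WD LKO NAMPT replicate 2 and to 0.11 without WD LKO EV replicate 1.

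Whether the NAMPT effect differed between genotypes was tested by the interaction, which shares all 4 Western-diet groups with the comparisons above. No member was called by limma, edgeR's quasi-likelihood test or DESeq2. Over all genes limma called 0.00711%, DESeq2 called 13 genes and the quasi-likelihood test 0. An unadjusted p-value under 0.05 was found for 1 member and for 21.2% of all genes. For Arntl the interaction was 1.01 (-0.29 to 2.30), so that a weaker fall in LKO than in WT was not shown, and it went to 1.53 without WD LKO NAMPT replicate 2. It ran from -1.20 ± 0.39 for Per1 (SE, limma adjusted p = 0.102) to 1.19 ± 0.88 for Npas2 (SE, limma adjusted p = 0.436). Per1 was called without WD LKO NAMPT replicate 1 (-1.36, limma adjusted p = 0.0416).

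**Figure D2:**
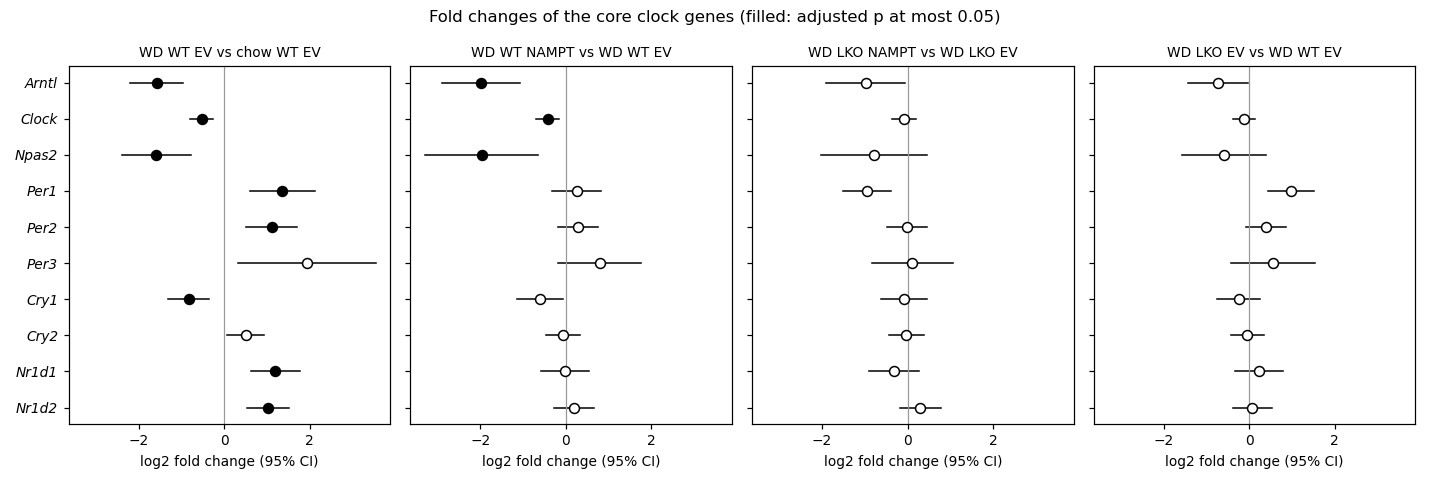
Log2 fold changes (points) with 95% confidence intervals (lines) of the 10 clock genes in 4 comparisons, with filled points at an adjusted p of at most 0.05. Western diet against chow has 8 filled points, NAMPT in WT has 3, and both LKO panels have 0.

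WD LKO NAMPT against WD WT NAMPT also called none of the members, where 7.96% of all genes were called, 4.18% higher and 3.78% lower. No member had an unadjusted p-value under 0.05, against 28.6% of all genes. DESeq2 and both edgeR tests called no member. The log2 fold changes ran from -0.23 for Per1 (-0.82 to 0.37) to 0.61 for Npas2 (-0.91 to 2.13), and every member overlapped between the groups. The sign for Per1 was not stable. Its mean was 21.8 CPM in WD WT NAMPT and 24.7 CPM in WD LKO NAMPT, and the fold change was positive in 4 of 10 alternatives. For Npas2 it was 0.17 with the replicate block, 0.21 without WD LKO NAMPT replicate 5 and 1.13 without WD LKO NAMPT replicate 2. Outside the core loop, 1 of 13 clock modifiers was called in each direction and 1 of 8 fasting genes higher, and the genes called by limma included Hlf (0.60), Csnk1e (-0.70), a kinase of PER proteins, Tat (-0.74), Rbm3 (-0.52) and Marco (-2.14).

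WD LKO EV against WD WT EV asks what the genotype label changes under the empty vector. No member was called by limma, DESeq2 or either edgeR test. Over all genes limma called 0.00711%, DESeq2 called 11 genes and the quasi-likelihood test 0. An unadjusted p-value under 0.05 was found for 2 members and for 6.33% of all genes. Per1 was at 9.41 CPM in the lowest, 19.5 in the median and 24.2 in the highest WD WT EV library, and at 24.3 to 43.5 CPM in the 5 WD LKO EV libraries given above. It was the single member whose groups did not overlap, a pattern that 0.263% of all genes showed in that direction, and the edge was narrow. The log2 fold change was 0.97 ± 0.26 (SE, limma adjusted p = 0.3745). Arntl was at the other end of the range, -0.73 ± 0.34 (SE, limma adjusted p = 0.775). None of the other listed genes was called in this comparison, in the NAMPT comparison within LKO or in the interaction. The summed Kupffer cell markers were 227 to 273 CPM in WD LKO EV and 206 to 309 CPM in WD WT EV.

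The diet itself, compared in WT mice with the empty vector, called more clock genes than the other comparisons, and it shares its WD WT EV libraries with the comparisons above. A total of 8 members were called, 4 lower and 4 higher, where 22% of all genes were called (12% lower and 10.1% higher). All 10 members had an unadjusted p-value under 0.05, against 35.1% of all genes. Arntl, Npas2, Clock and Cry1 were lower on Western diet, and Per1, Per2, Nr1d1 and Nr1d2 were higher. In 2 members, Arntl and Clock, every Western-diet liver was below every chow liver, as in 8.45% of all genes. In 4 members, Per1, Per2, Per3 and Cry2, every Western-diet liver was above, as in 7.66% of all genes.

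Arntl was at 37.4, 37.4 and 27.6 CPM in chow replicates 1 to 3, above the highest WD WT EV liver. Its log2 fold change was -1.58 ± 0.30 (SE, limma adjusted p = 0.000594). Clock, at 104, 101 and 86.2 CPM on chow, likewise did not overlap the Western-diet livers and changed by -0.53 ± 0.13 (SE, limma adjusted p = 0.00557). Npas2 was at 16.1, 15.0 and 7.73 CPM on chow, and only replicate 3 lay within the Western-diet range. Its log2 fold change was -1.59 ± 0.39 (SE, limma adjusted p = 0.00557), -0.93 with the replicate block, and it was called in 6 of 9 alternatives.

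In the repressing limb, Per1 was at 6.82, 7.66 and 5.48 CPM on chow, below all 6 WD WT EV livers, with a log2 fold change of 1.36 ± 0.37 (SE, limma adjusted p = 0.00993). Per2, which sets the period of the loop with Per1, was at 12.5, 8.86 and 4.89 CPM on chow against 16.5 to 30.7 CPM, with 1.11 ± 0.29 (SE, limma adjusted p = 0.00778). Per3 was at 3.47, 1.87 and 3.75 CPM against 5.66 to 22.1 CPM. Its groups did not overlap either, but 1.93 ± 0.78 missed the threshold (SE, limma adjusted p = 0.0794). Per3 was called in 4 of 9 alternatives, among them DESeq2 and both edgeR tests. The cryptochromes lay on opposite sides of 0. Cry1 was at 17.7, 13.4 and 6.79 CPM on chow against 5.73 to 9.83 CPM and changed by -0.84 ± 0.23 (SE, limma adjusted p = 0.0115). This call held in 4 of 9 alternatives, with limma adjusted p = 0.156 without quality weights. Cry2 lay between 20.97 and 22.01 CPM on chow, below the Western-diet range of 24.8 to 45.9 CPM, with 0.50 ± 0.21 (SE, limma adjusted p = 0.0863), and was called in 1 of 9 alternatives, the fit on only the groups compared.

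The REV-ERB genes differed widely among the chow livers. Nr1d1 was at 28.2, 54.6 and 134 CPM in chow replicates 1 to 3 and at 77.3 to 183 CPM in WD WT EV, so that replicate 3 lay inside the Western-diet range. Nr1d2 was at 23.2, 39.3 and 58.3 CPM against 51.5 to 98.7 CPM. The log2 fold changes were 1.20 ± 0.28 (limma adjusted p = 0.00373) and 1.02 ± 0.24 (limma adjusted p = 0.00358, SE in both). Nr1d1 was called in 5 of 9 alternatives, not by DESeq2 or either edgeR test, where it was 0.77 to 0.78, and Nr1d2 in 8 of 9. Chow replicate 3 carried a weight of 0.608 in the fit against 1.80 and 2.504 for the other chow livers. Without chow replicate 1 only Arntl and Per2 were called, and without chow replicate 2 only Arntl. The values moved as well. Without chow replicate 1, Nr1d1 went to 0.35, Nr1d2 to 0.52 and Cry1 to -0.30, and without chow replicate 2 Cry1 went to -0.51.

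Among the targets and modifiers of the loop, Dbp had the largest change with diet, from 1.25, 0.62 and 5.13 CPM as the median, lowest and highest chow library to 8.79 to 51.3 CPM on Western diet, where the fit gave 4.04 ± 1.17 on the log2 scale (SE, limma adjusted p = 0.0157). Of 13 clock modifiers, 1 was called in each direction, and of the 4 D-box factors 2 were called higher and 1 lower. Those called also included Tef (1.27), another D-box activator, Nfil3 (-1.27) and Bhlhe40 (1.26), a repressor at E-boxes. Ciart lay at 0.165 to 0.445 CPM on chow, only 4 to 10 counts, below the Western-diet range of 0.831 to 9.30 CPM. Its log2 fold change was 2.60 ± 1.43 (SE, limma adjusted p = 0.199). All 4 feeding genes were called higher, among them the lipogenic regulator Srebf1 (1.63), Fasn (1.35) and Pnpla3 (4.53), and of 8 fasting genes 2 were called higher and 1 lower, among them Cpt1a (0.93) and Pdk4 (-1.29). Of the glucocorticoid targets Fkbp5 (1.19) was higher and Tat (-0.95) lower. No immediate early, temperature-responsive, neutrophil, T cell or cholangiocyte gene was called. Among the cell type markers Cps1 (-1.22) and Tat, both hepatocyte genes, Kdr (-0.20) and Cd79b (-0.79) were lower and Cd5l (1.06) and Lrat (0.54) higher, and summed Kupffer cell markers were 160 to 196 CPM on chow against 206 to 309 CPM. The part of these in the clock values was not tested.

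Mice of the same group differed widely in clock gene levels. The pooled SD within groups on the log2(CPM + 0.5) scale had a median of 0.49 over the 10 members, against 0.25 over all genes. Per3 (0.85), Npas2 (0.81) and Arntl (0.70) had larger spreads than 98.5%, 98.2% and 96.9% of all genes. Clock had the smallest, 0.23, larger than 43.2% of genes. The members' median exceeded that of all genes in each of the 5 groups, for example 0.43 against 0.22 in WD WT EV and 0.52 against 0.20 in WD LKO EV.

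**Figure D3:**
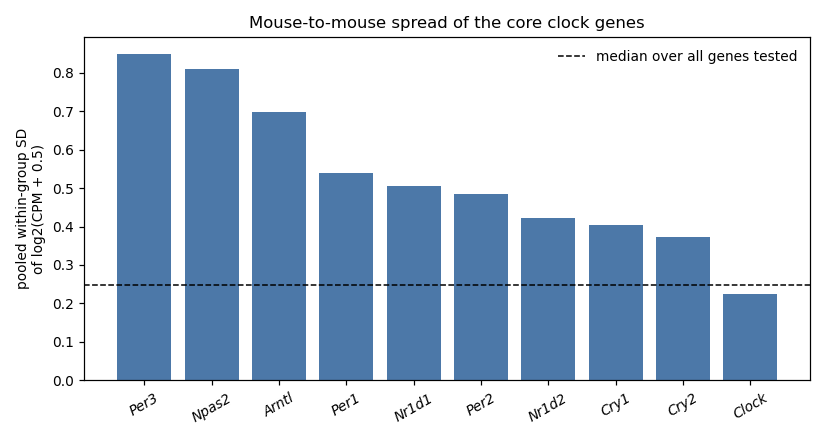
Pooled within-group SD of log2(CPM + 0.5) for each clock gene (bars, axis from 0), with the median over all genes tested as a dashed line at 0.25. Clock, at 0.23, is the single bar below the line, and Per3, at 0.85, is the tallest.

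This spread was shared between genes. With group means subtracted, 8 of the other 9 members correlated with Arntl over the 25 libraries (two-sided permutation test within groups, 100000 resamples, adjusted over 9 relations). Npas2 (Pearson r 0.83, Spearman rho 0.83, permutation p = 7e-05 and 5e-05, adjusted 0.00021 and 0.00015) and Clock (r 0.69, rho 0.70, permutation p = 0.00131 and 0.00089, adjusted 0.00196 and 0.0016) varied with it. Per3 (r -0.88, rho -0.87, permutation p = 2e-05 and 3e-05, adjusted 9e-05 and 0.000135) and Cry2 (r -0.83, rho -0.84, permutation p = 1e-05 for both, the smallest that these resamples can give, adjusted 9e-05) varied against it. Nr1d2 (r -0.67, rho -0.71, permutation p = 0.00039 and 0.00032, adjusted 0.000877 and 0.00072) and Per2 (r -0.64, rho -0.62, permutation p = 0.00116 and 0.00257, adjusted 0.00196 and 0.00385) did so less closely.

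Nr1d1 (r -0.48, rho -0.56, permutation p = 0.00305 and 0.00447, adjusted 0.00392 and 0.00575) and Per1 (r -0.48, rho -0.48, permutation p = 0.039 and 0.0386, adjusted 0.0439 and 0.0434) were the weakest of the 8. Cry1 was not called (r 0.26, rho 0.28, permutation p = 0.216 and 0.199). Without the 2 libraries farthest from the Arntl median, WD WT EV replicate 7 and WD WT NAMPT replicate 2, r lay between -0.87 for Per3 and 0.82 for Npas2 and every sign was kept. The count was 7 with library size alone and 7 or 8 when each library was left out. The labels name no batch or cage to compare within, and the permutation treats the libraries of a group as exchangeable.

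**Figure D4:**
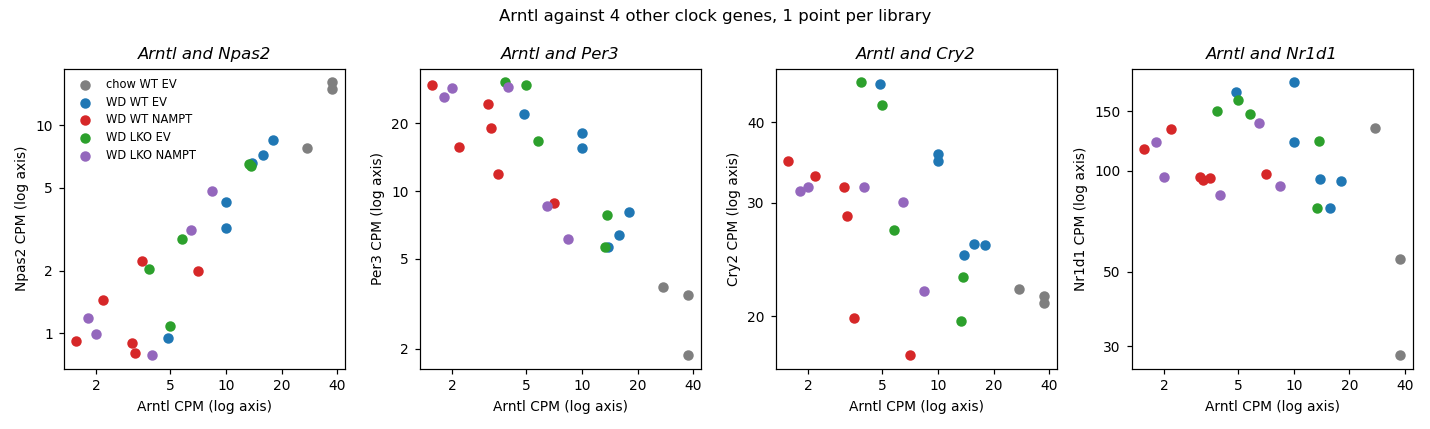
CPM of Npas2, Per3, Cry2 and Nr1d1 against CPM of Arntl, with log axes and 1 point per library, coloured by group. Npas2 rises with Arntl and Per3 falls, and these plots include the differences between groups that the correlations above leave out.

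In the WD WT EV group, replicates 1, 2 and 4 held 13.8 to 18.1 CPM of Arntl and 5.66 to 8.10 CPM of Per3, whereas replicates 6, 7 and 8 held 4.88 to 10.1 and 15.5 to 22.1 CPM. The WD LKO EV replicates 1 and 2 held 13.4 and 13.7 CPM of Arntl with 5.63 and 7.82 CPM of Per3, and replicates 3 to 5 held 3.87 to 5.78 with 16.6 to 30.4 CPM. With NAMPT, WD LKO replicates 4 and 5 had the higher Arntl (6.51 and 8.48 CPM) and the lower Per3 (8.55 and 6.11 CPM). In the sample list, WD LKO EV replicates 1 and 2 and WD WT EV replicates 1, 2 and 4 stand together. The other libraries of these groups follow, and both NAMPT groups come last. Whether that order follows a batch is not stated. Whether these livers were taken at other hours is not given in the sources used here. Neither was tested.

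**Figure D5:**
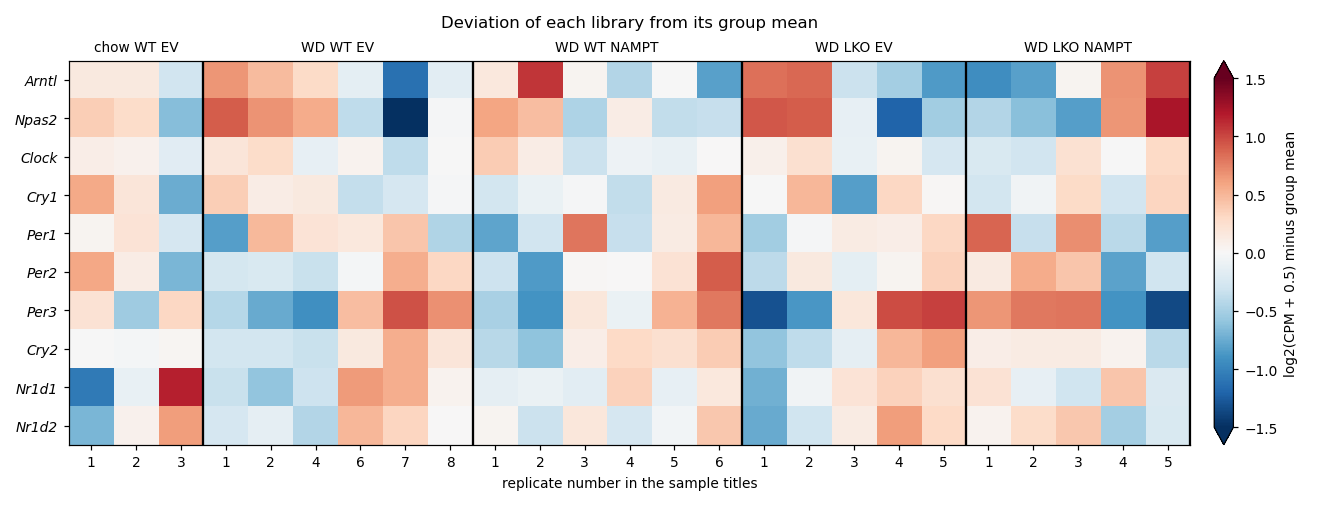
Deviation of each library from its group mean in log2(CPM + 0.5), with genes as rows and libraries as columns, where red is above and blue below the mean. In WD WT EV, WD LKO EV and WD LKO NAMPT the libraries with red Arntl and Npas2 have blue Per3.

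The genes whose deviations were most like those of Arntl, among 12491 genes other than the members and over the 25 libraries, included Golt1b (r 0.87), Asap2 (0.87), Lnx2 (0.83) and Nedd4l (0.82). The most opposite were Tef (-0.90), Clmn (-0.89), Mtss1 (-0.88), Polg2 (-0.87) and Pcsk4 (-0.87). For Nr1d1 they were Tns2 (0.79), Dyrk1b (0.79), Hps4 (0.76), Slc8b1 (0.76) and Pptc7 (0.74), and at the opposite end Ppp1r10 (-0.78), Zbtb21 (-0.77), Fbxo28 (-0.76), Blvra (-0.75) and Dhx29 (-0.74). For Per2 they were Marveld1 (0.88), Slc46a3 (0.85), Homer2 (0.85), Syde2 (0.84) and Azin1 (0.83), and opposite to it Sqstm1 (-0.85), Eps8l2 (-0.84), Mlkl (-0.83), Tm4sf4 (-0.83) and Cxcl1 (-0.82). These genes share the libraries and their size factors with the members, and the values are a description.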

How the data were processed

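Liver poly-A RNA was sequenced by the authors as single reads of 50 bases, aligned with STAR and counted per gene with featureCounts (2.5.1a and 1.4.6-p5 on GRCm38 in the submitters' processing notes), and each sample's deposited table gives counts per gene. The deposited CPM and RPKM columns follow from those counts within 5.9e-14 in relative terms and were not used for tests. Counts were normalized by TMM (edgeR 4.0.16), 4 ribosomal RNA genes were removed, and 14065 genes with more than 1 CPM in at least 2 libraries were kept. The TMM factors, this filter and limma (3.58.1 here) with voom and sample quality weights follow the study's methods. The fit took all 25 libraries with 1 mean per group, with Benjamini-Hochberg adjustment over all genes and a threshold of 0.05. RPKM printed here are TMM-normalized CPM per kilobase of exon. CPM in sentences are linear, and correlations used log2(CPM + 0.5).

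Groups came from the sample titles. The most similar pair of libraries within a group still differed by more than counting noise. Intervals and p-values measure the spread between mice. The members, lists and tests were chosen with earlier results of these data known. The 10 members were to be described in every comparison, and other listed genes named where called, with Dbp, Ciart, Nampt and Sirt1 in any case, except some genes that were called and are not reported here. Alternatives were edgeR's quasi-likelihood and exact tests, DESeq2 1.42.0, upper-quartile and library-size scaling, no quality weights, no filter, only the groups compared, a replicate block and leaving out each library. A fit without WD WT NAMPT replicates 1 and 2 was chosen after seeing the data, from the size factors. The fit and the correlation step were tested on simulated data. R 4.3.3, Python 3.11.15 and scipy 1.17.1 were used.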

Additional observations from a re-analysis of the deposited data

Results flagged for a closer look

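Cry2 in WD LKO NAMPT replicate 5 was at 21.8 CPM, far below the nearest of the other 4 livers of its group at 30.1 CPM. On the log2(CPM + 0.5) scale the gap was 0.855 of the group's whole range. It was the 1 such library in 40 combinations of gene and group examined, where chance alone gives about 1 in 20. The same liver had the highest Arntl of its group, 8.48 CPM.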

How the results depend on the processing

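The count of clock genes called with NAMPT in WT went from 3 to 1 without sample quality weights, with library size alone and with no filter on low counts, and to 0 without WD WT NAMPT replicates 1 and 2. It ran from 0 to 3 when each library was left out, 0 without WD WT NAMPT replicate 3 and 1 without WD WT EV replicate 2, WD WT EV replicate 6 or WD WT NAMPT replicate 4. With diet the count went from 8 to 5 without quality weights and under the quasi-likelihood test, was 10 with only the groups compared, and ran from 1 to 8 when each library was left out, 2 without chow replicate 1 and 1 without chow replicate 2. The interaction count ran from 0 to 1. The counts for LKO EV against WT EV, LKO NAMPT against WT NAMPT and NAMPT in LKO were 0 under every alternative. The cause of these moves was not tested. Signs turned for uncalled values near 0. With NAMPT in WT, Cry2 was 0.0865 with library size alone, 0.0433 with the replicate block and 0.0568 without WD WT NAMPT replicates 1 and 2, and Nr1d1 was 0.00669 with upper-quartile scaling and 0.101 with library size alone. In LKO NAMPT against WT NAMPT, Per1 was 0.12 without quality weights, 0.18 under the quasi-likelihood and exact tests and 0.17 under DESeq2. Leaving out libraries gave ranges in WT of -0.0381 to 0.505 for Per1, -0.167 to 0.0262 for Cry2 and -0.199 to 0.0743 for Nr1d1, and of -0.485 to 0.0583 for Per1 in LKO NAMPT against WT NAMPT. Same-numbered mice of the WT groups deviated with correlations of -0.23 to 0.41 over 4 pairs, so the numbers were not taken as pairs. With the replicate block 2 members were called with NAMPT in WT, Clock no longer, and 8 with diet. Arntl kept its sign and its call with diet under every alternative. Npas2 reached the lowest count of any member, 17 in WD WT NAMPT replicate 6, and 3 chow livers limit the diet comparison.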
